A study of Mus musculus with 18 samples.

Results

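The comparison described here is that of Rock1/2-shRNA with scramble-shRNA in the mCherry-negative cells of cultured mouse embryonic kidneys, the cells with the lowest signal of the vector's reporter. It rests on 6 of the series' 18 RNA-seq libraries, 3 of Rock1/2-shRNA and 3 of scramble-shRNA, assigned to their groups by the labels. Wild-type kidneys of the outbred CD1 stock were taken at embryonic day 14 and exposed for 4 hours to the adeno-associated virus AAV2. The vector carried the broadly active CAG promoter, an mCherry reporter and, downstream of it, 2 shRNA cassettes built into mir30 backbones. In Rock1/2-shRNA 1 cassette was aimed at Rock1 and the other at Rock2. In scramble-shRNA the cassettes held shuffled versions of those target sequences. The kidneys then grew for 72 hours in a 3D gel of collagen I and Matrigel, the cultures of a condition were pooled, and the pool was digested for 30 minutes with trypsin and collagenase before sorting. The lower 50% of cells by mCherry signal formed the negative fraction and the upper 25% the positive fraction, so that a negative cell has low reporter signal and is not shown to be free of vector. The kidneys of a replicate came from 1 litter, and the replicate number is therefore the litter number. The remaining libraries of the series are the positive fractions of the same cultures and both fractions of a Mylk-shRNA condition.

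Rock1 and Rock2 encode protein kinases that act downstream of the small GTPase RhoA. They phosphorylate the myosin phosphatase subunit, myosin light chain and LIM kinase, and thereby raise actomyosin tension and stabilise actin filaments. In the embryonic kidney such tension shapes the branching ureteric epithelium, the surrounding nephron progenitors and the forming nephrons. Cells of low reporter signal that share a culture with transduced cells can in principle meet altered tension, altered tissue architecture or altered secreted signals without carrying the knockdown themselves. Comparing them between the 2 vectors asks what such neighbouring cells show.

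The 6 libraries held between 3889467 and 12170313 counts, with the lowest total in scramble-shRNA of litter 3. Levels are given as CPM, the counts of a gene in every 1e6 counts of a library. Genes encoded by mitochondria took 2.48 to 7.62% of counts, and the highest shares were those of litter 3 in both groups. Cytosolic ribosomal protein genes took 10.3% of counts in scramble-shRNA of litter 1 and 13 to 15.3% in the other 5 libraries. Xist, the RNA that coats the inactive X chromosome, stood at 1.71 CPM in Rock1/2-shRNA of litter 3 and at 101 to 376 CPM in the other 5. The Y-linked gene Ddx3y was highest in that same library, at 83.0 CPM, and lowest in Rock1/2-shRNA of litter 2, at 10.3 CPM. The sex makeup of the pooled embryos thus differed between cultures. Its part in the differences below was not tested. Six2, a transcription factor that defines nephron progenitors, lay between 243 and 395 CPM in the 6 libraries, so this marker of the labelled tissue was present in each. These are RNA levels of mixed cell populations, in which fewer cells of a type and less RNA per cell cannot be told apart.

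The targeted kinases did not separate the groups in the negative fraction. Rock1 stood at 106, 81.6 and 90.0 CPM in scramble-shRNA of litters 1, 2 and 3 and at 80.5, 90.9 and 73.6 CPM in Rock1/2-shRNA. It was lower with Rock1/2-shRNA in litters 1 and 3, higher in litter 2, and the groups overlapped. The level with Rock1/2-shRNA was 88.0% of that with scramble-shRNA, with a 95% interval of 74.3 to 104%. This interval comes from a fit with litter as a block, where the edgeR quasi-likelihood test gave an unadjusted p of 0.129. An exact two-sided permutation that ignores litter gave p = 0.3, where 3 against 3 libraries shuffled freely allow no p below 0.1. The permutations for Rock2 and Mylk below ignore litter too. Rock2 stood at 88.1, 68.8 and 71.5 CPM in scramble-shRNA and at 70.4, 76.3 and 69.3 CPM in Rock1/2-shRNA. That is 94.0% of scramble-shRNA, with an interval of 79.2 to 111% (exact permutation p = 0.7). Mylk, the myosin light chain kinase that Rock1/2-shRNA does not target, stood at 73.7, 57.8 and 75.8 CPM against 63.9, 63.4 and 66.8 CPM, or 94.4% with an interval of 79.5 to 112% (exact permutation p = 0.4). In the positive cells of the same cultures Rock1 was at 78.9, 76.5 and 101 CPM in scramble-shRNA and 82.2, 83.9 and 74.7 CPM in Rock1/2-shRNA. Rock2 was there at 65.0, 67.5 and 81.9 CPM against 56.2, 67.7 and 65.0 CPM. The log2 difference in positive cells was −0.08 ± 0.12 (SE) for Rock1 and −0.16 ± 0.13 for Rock2. The effect in negative cells did not separate from that in positive cells, with a difference between the log2 effects of −0.11 ± 0.17 for Rock1 and 0.07 ± 0.17 for Rock2.

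No gene passed the test for a difference between Rock1/2-shRNA and scramble-shRNA in the negative cells. Of 16544 genes tested with edgeR's quasi-likelihood test with litter as a block, 0 (0%) passed a Benjamini-Hochberg adjusted p of 0.05, and every adjusted p was 1. DESeq2 likewise called 0. At an unadjusted p under 0.05 there were 644 genes by edgeR and 392 by DESeq2. Of the 644, 353 (2.13% of all tested) were higher with Rock1/2-shRNA and 291 (1.76%) lower. Together they make 3.89% of the genes, a smaller share than the unadjusted threshold itself. For 86.5% of the genes the 95% interval lay within a 2-fold difference either way, and for 67.6% within 1.5-fold. These intervals are per gene and not adjusted. Standard errors of the log2 difference had a median of 0.14, and the p-values rest on the spread that remains within litters after the block, each library being a pool of kidneys. Without Rock1/2-shRNA of litter 3, the library with almost no Xist, 509 genes had an unadjusted p under 0.05. The leading genes and the gene lists are described with their values, and none passed.

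**Figure D1:**
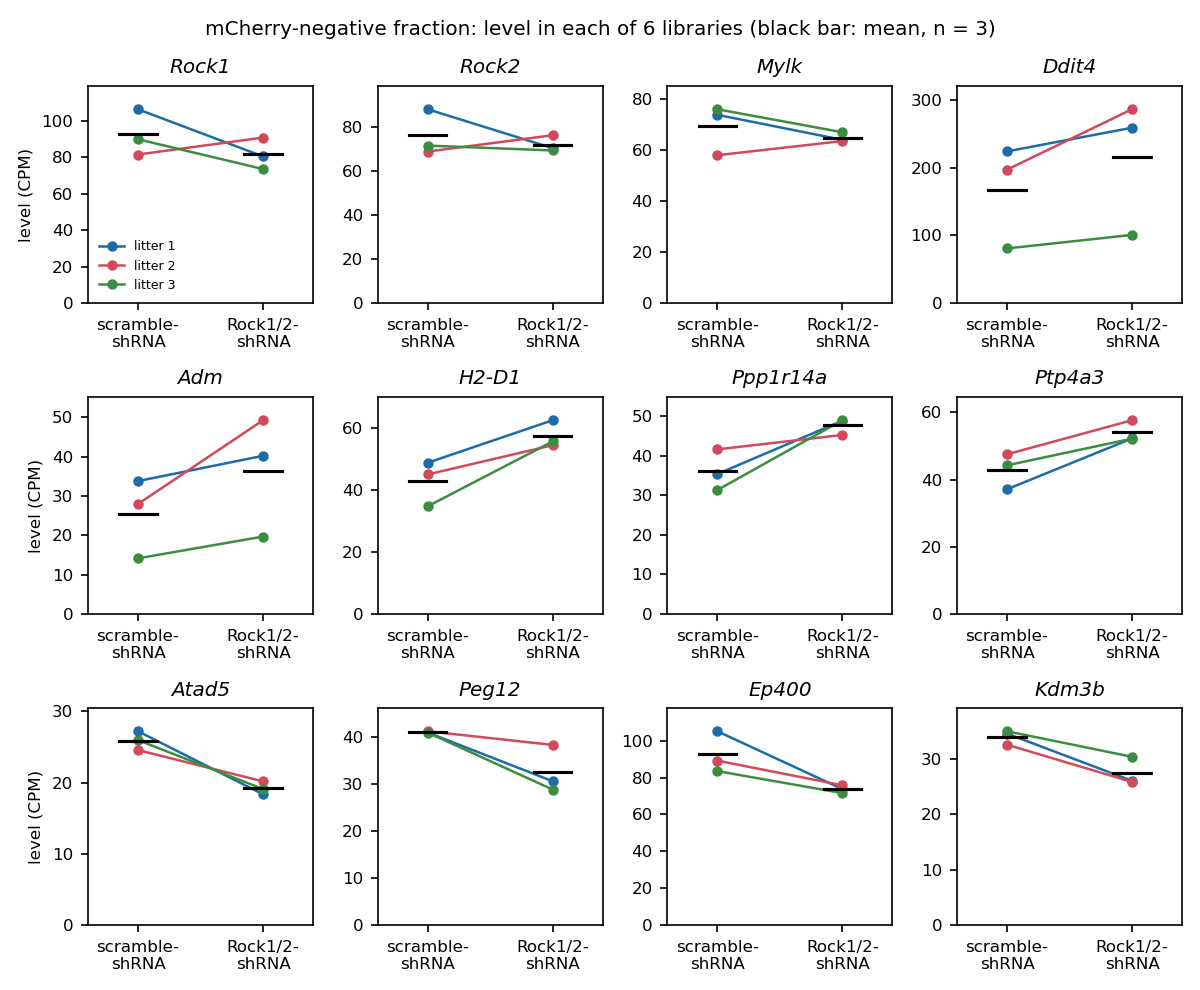
Level in CPM (vertical axis, starting at 0) of 12 genes in the 6 mCherry-negative libraries, scramble-shRNA on the left and Rock1/2-shRNA on the right of each panel. Each coloured line joins the 2 libraries of 1 litter and black bars are means (n = 3). The lines of Rock1, Rock2 and Mylk run in different directions, those of Ddit4, Adm, H2-D1, Ppp1r14a and Ptp4a3 go up in all 3 litters and those of Atad5, Peg12, Ep400 and Kdm3b go down in all 3.

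Genes that respond to low oxygen lay on the higher side. All 31 members of the hypoxia and glycolysis list were tested, all 31 had a log2 fold change above 0, and their median was 0.13, against 52.2% above 0 and a median of 0.01 over all genes tested. At an unadjusted p under 0.05, 7 were higher and 0 lower, against 2.13% of all genes higher and 1.76% lower. Hypoxia-inducible factor, the transcription factor that oxygen-dependent prolyl hydroxylases mark for destruction, binds a short core motif, ACGTG or GCGTG, near many of these genes. The promoter source held no window for Slc2a3 and Ndrg1, so the windows of 5 of the 7 are printed here. They are RefSeq sequences of build GRCm38.p6 from 250 bases before to 50 bases after the start site, written 5′ to 3′ along the gene's strand, with either core on either strand in capitals and overlapping matches run together. Adm lies at chr7:110627407-110627706, plus strand. Egln3 lies at chr12:54203825-54204124, minus strand. Car9 lies at chr4:43506776-43507075, plus strand. Ankrd37 lies at chr8:45999801-46000100, minus strand. Bnip3 lies at chr7:138909457-138909756, minus strand.
Adm: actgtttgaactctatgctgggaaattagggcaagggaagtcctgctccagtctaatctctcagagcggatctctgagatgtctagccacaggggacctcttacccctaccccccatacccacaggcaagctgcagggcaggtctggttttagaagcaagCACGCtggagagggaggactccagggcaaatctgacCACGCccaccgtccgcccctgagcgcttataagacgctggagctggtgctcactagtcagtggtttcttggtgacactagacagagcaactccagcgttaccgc
Egln3: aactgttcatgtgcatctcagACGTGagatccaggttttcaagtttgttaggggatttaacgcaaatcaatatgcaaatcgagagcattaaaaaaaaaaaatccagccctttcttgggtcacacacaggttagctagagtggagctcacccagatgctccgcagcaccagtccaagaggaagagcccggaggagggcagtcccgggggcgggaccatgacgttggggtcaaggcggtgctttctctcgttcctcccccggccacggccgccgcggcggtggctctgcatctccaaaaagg
Car9: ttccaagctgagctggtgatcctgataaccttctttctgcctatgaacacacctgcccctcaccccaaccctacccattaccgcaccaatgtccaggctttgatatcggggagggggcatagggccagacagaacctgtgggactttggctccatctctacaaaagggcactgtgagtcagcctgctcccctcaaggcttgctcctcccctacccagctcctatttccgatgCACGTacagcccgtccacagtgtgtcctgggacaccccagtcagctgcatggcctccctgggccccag
Ankrd37: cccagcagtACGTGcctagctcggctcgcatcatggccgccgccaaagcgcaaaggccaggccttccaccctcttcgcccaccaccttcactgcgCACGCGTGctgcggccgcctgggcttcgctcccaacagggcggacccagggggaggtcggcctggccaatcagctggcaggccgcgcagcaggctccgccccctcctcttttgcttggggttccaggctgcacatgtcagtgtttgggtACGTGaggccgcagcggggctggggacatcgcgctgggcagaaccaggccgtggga
Bnip3: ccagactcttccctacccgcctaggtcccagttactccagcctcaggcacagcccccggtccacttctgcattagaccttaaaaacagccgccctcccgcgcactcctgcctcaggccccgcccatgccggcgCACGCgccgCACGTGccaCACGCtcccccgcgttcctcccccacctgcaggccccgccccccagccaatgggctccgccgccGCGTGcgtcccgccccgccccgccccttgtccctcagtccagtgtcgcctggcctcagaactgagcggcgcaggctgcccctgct
Adm holds 2 matches, Egln3 1, Car9 1, Ankrd37 4 and Bnip3 5. Over all 32851 promoter windows of this length, 43.8% hold at least 1 of the cores, 19.6% hold ACGTG and 32.4% hold GCGTG. The hypoxia list has 41 windows for 29 of its 31 genes, and 32 of these windows (78.0%) hold a core. The list was made of genes known for this regulation, and a match is a description of the letters only.

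Adm encodes adrenomedullin, a secreted peptide that relaxes vessels. It stood at 33.8, 27.9 and 14.1 CPM in scramble-shRNA of litters 1, 2 and 3 and at 40.2, 49.2 and 19.7 CPM in Rock1/2-shRNA. Each litter was higher with Rock1/2-shRNA, but litter 3 of Rock1/2-shRNA lay below litters 1 and 2 of scramble-shRNA, so the groups overlapped. The log2 fold change was 0.52 ± 0.12 (SE), unadjusted p = 0.000375. Egln3, an oxygen-sensing prolyl hydroxylase, stood at 92.3, 55.4 and 37.3 CPM against 88.1, 89.2 and 46.9 CPM, a log2 fold change of 0.30 ± 0.11. Here litter 1 was lower with Rock1/2-shRNA and litter 2 carried the largest step. Car9, a carbonic anhydrase of the cell surface, was nearly level over scramble-shRNA, at 12.3, 11.9 and 11.1 CPM, and stood at 12.2, 20.7 and 15.8 CPM in Rock1/2-shRNA (0.45 ± 0.18). Ankrd37, a small ankyrin repeat protein, stood at 149, 134 and 45.0 CPM against 197, 149 and 58.9 CPM (0.30 ± 0.12). The remaining 3 with an unadjusted p under 0.05, named after their values were seen, were Bnip3 (mitophagy receptor) at 0.20 ± 0.09, Slc2a3 (glucose transporter) at 0.25 ± 0.11 and Ndrg1 at 0.21 ± 0.10. None of the 31 had groups that did not overlap, whereas 2.61% of all tested genes did so on the higher side. In all 3 litters 8 of the 31 were higher, against 12.2% of all genes.

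The hypoxia list also varied between litters within a group. Its summed level was 15742, 13398 and 11853 CPM in scramble-shRNA of litters 1, 2 and 3 and 15430, 16052 and 12889 CPM in Rock1/2-shRNA, lowest in litter 3 of both groups. The median difference was 0.00 in litter 1, 0.26 in litter 2 and 0.11 in litter 3, and it was 0.06 without litter 2. Vegfa, the endothelial growth factor that is also a member, stood at 453, 323 and 303 CPM against 477, 400 and 337 CPM (0.18 ± 0.11). In the positive cells, 20 of the 31 were above 0 with a median of 0.03. The difference between the fractions' effects was above 0 for 26 of the 31, with a median of 0.13, against a median of 0.001 over all genes. The test of this difference gave 0 of 31 at an unadjusted p under 0.05, against 2.64% of all genes. In the negative cells of Mylk-shRNA, Adm stood at 41.9, 43.3 and 16.8 CPM, Ankrd37 at 203, 175 and 68.2 CPM and Vegfa at 571, 382 and 479 CPM. Each was above the same scramble-shRNA libraries in each litter. For these genes a difference of Rock1/2-shRNA cannot be told apart from one of the shared scramble-shRNA libraries.

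**Figure D2:**
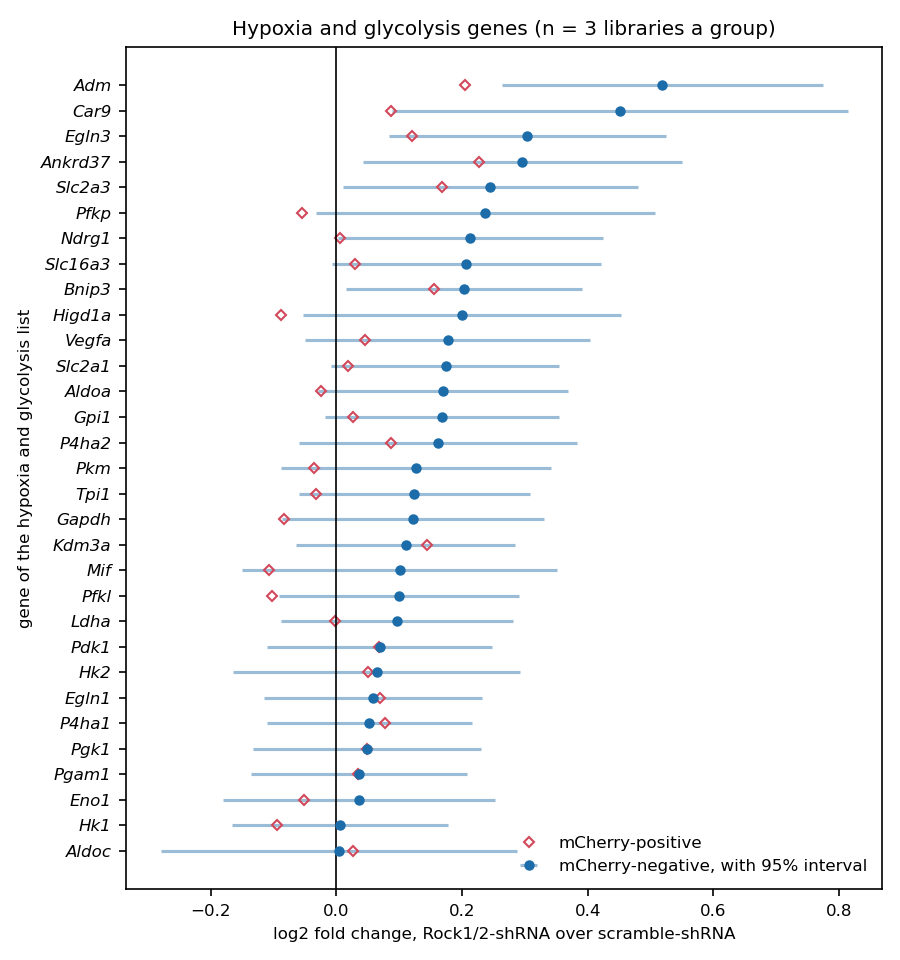
Log2 fold change of Rock1/2-shRNA over scramble-shRNA (horizontal axis) for the 31 hypoxia and glycolysis genes (rows), with filled points and 95% intervals for mCherry-negative cells and open diamonds for mCherry-positive cells, 3 libraries a group. All filled points lie right of 0 and 7 intervals exclude it; the diamonds lie on both sides.

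Of the 12 genes with the smallest unadjusted p on the higher side none passed, and each adjusted p was 1. They are selected by this same contrast, so their values are a description. Among stress genes, Ddit4, an inhibitor of the growth kinase mTOR that is induced by low oxygen and by glucocorticoids, stood at 224, 197 and 80.7 CPM in scramble-shRNA and 259, 287 and 101 CPM in Rock1/2-shRNA (log2 fold change 0.36 ± 0.08, unadjusted p = 0.000294). Litter 3 was low in both groups, and the step was upward within each litter. H2-D1, a classical MHC class I heavy chain, stood at 48.7, 45.0 and 34.7 CPM against 62.4, 54.4 and 55.6 CPM (0.41 ± 0.10). Its groups did not overlap. Among genes of contraction and membrane excitability, Ppp1r14a (CPI-17, an inhibitor of myosin phosphatase that ROCK can phosphorylate) stood at 35.4, 41.7 and 31.4 CPM against 48.9, 45.3 and 49.0 CPM (0.39 ± 0.10), again without overlap. Kcne3, a potassium channel subunit, overlapped, with 5.50, 8.46 and 11.8 CPM against 7.4, 11.6 and 19.4 CPM (0.54 ± 0.17).

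The others on the higher side were of varied function. H2ac8, a replication-type histone H2A gene, was at 10.4, 9.08 and 10.0 CPM in scramble-shRNA and 26.0, 11.7 and 12 CPM in Rock1/2-shRNA, so that its log2 fold change of 0.77 ± 0.20 drew mostly on litter 1. Gpr137b, a lysosomal membrane protein, was at 148% of scramble-shRNA with a 95% interval of 117 to 187%. Ptp4a3, a phosphatase, was at 127% (110 to 147%), and Agpat4, an enzyme of phospholipid synthesis, at 123% (108 to 141%). Lxn, a carboxypeptidase inhibitor, was at 142% (113 to 177%) and Nts, the precursor of the peptide neurotensin, at 146% (114 to 188%). Negative cells of Mylk-shRNA again lay above the shared scramble-shRNA libraries in each litter for Ddit4 (281, 241 and 106 CPM), H2-D1 (66.2, 54.5 and 54.9 CPM) and Ppp1r14a (48.5, 48.5 and 38.7 CPM). They did not for H2ac8 (14.8, 8.03 and 5.86 CPM), which was below scramble-shRNA in litters 2 and 3. Nor did they for Agpat4 (45.4, 49.7 and 44.7 CPM), which was below it in litter 1. For Ddit4, H2-D1 and Ppp1r14a a difference of Rock1/2-shRNA cannot be told apart from one of the shared scramble-shRNA libraries. Of the 12 genes 8 had groups that did not overlap, a feature of 2.61% of all genes on the higher side, and the way they were picked favours it.

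Of the 12 leading genes on the lower side none passed, and they were of varied function. Atad5, which unloads the PCNA clamp from replicated DNA, stood at 27.2, 24.6 and 26.0 CPM in scramble-shRNA and 18.4, 20.2 and 19.1 CPM in Rock1/2-shRNA (log2 fold change −0.43 ± 0.12, unadjusted p = 0.00136). Its 6 values fell into 2 separate ranges. Ep400, a chromatin remodeller, stood at 105, 89.2 and 83.5 CPM against 73.8, 75.8 and 71.6 CPM (−0.33 ± 0.11). Kdm3b, a histone H3 lysine 9 demethylase, stood at 34.5, 32.5 and 35.0 CPM against 26.0, 25.8 and 30.4 CPM (−0.33 ± 0.10). The groups overlapped for neither gene. Cbx3, a heterochromatin protein, was at 83.4% of scramble-shRNA (95% interval 73.9 to 94.1%), Bbx, an HMG-box protein, at 80.0% (69.3 to 92.3%) and Scaf4, a regulator of transcript termination, at 81.8% (71.6 to 93.5%).

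Peg12, an imprinted gene, was almost constant over scramble-shRNA, at 40.9, 41.2 and 40.9 CPM, and stood at 30.5, 38.3 and 28.8 CPM in Rock1/2-shRNA (−0.33 ± 0.09). The difference was smallest in litter 2. Kif1b, a kinesin motor, was at 78.9% of scramble-shRNA (68.1 to 91.4%), and Ambra1, a scaffold of autophagy, at 78.8% (68.4 to 90.7%). Slc6a6, the taurine transporter, was at 82.6% (73.4 to 93.0%), and Dcaf1, a substrate receptor of a ubiquitin ligase, at 83.9% (74.5 to 94.5%). In negative cells of Mylk-shRNA, Peg12 stood at 31.0, 33.8 and 32.1 CPM, below each scramble-shRNA library, while Atad5 stood at 20.5, 20.6 and 26.1 CPM. For Peg12 a difference of Rock1/2-shRNA cannot be told apart from one of the shared scramble-shRNA libraries. Of the 12 lower genes 6 had groups that did not overlap, a feature of 1.83% of all genes on the lower side.

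Transcript length moved with these differences. The longest annotated transcript had a median of 5862 bases for the 12 lower genes and 1482 bases for the 12 higher genes. When the 15699 genes with a known length (94.9% of those tested) were put into 5 bins of nearly equal size, the median log2 fold change went from 0.07 for the shortest through 0.03, 0.02 and −0.01 to −0.06 for the longest. Among the shortest, 118 genes were higher and 42 lower at an unadjusted p under 0.05; among the longest, 18 were higher and 115 lower. The gradient was widest in litter 1, with medians of 0.23 for the shortest and −0.15 for the longest, and the shares of ribosomal protein counts in that litter were 10.3% in scramble-shRNA and 13.9% in Rock1/2-shRNA. In litter 3 the medians were 0.04 and −0.06. In litter 2 they ran the other way, with −0.09 and 0.04. In positive cells they were −0.03 and 0.00. The part of library or RNA properties in the leading genes was not tested.

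**Figure D3:**
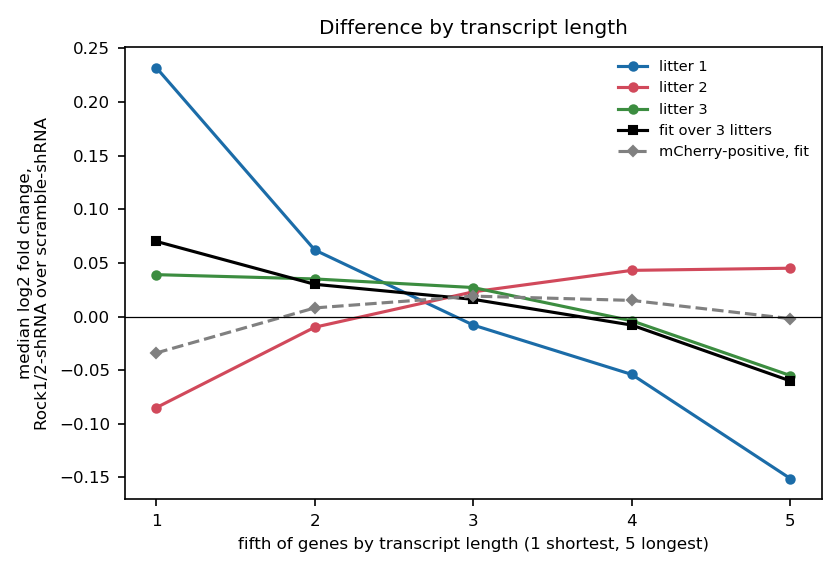
Median log2 fold change of Rock1/2-shRNA over scramble-shRNA (vertical axis) in 5 bins of genes ordered by transcript length (horizontal axis), for each litter and for the fit over 3 litters in mCherry-negative cells, and for the fit in mCherry-positive cells (dashed). Litter 1 runs from 0.23 down to −0.15 and litter 2 from −0.09 up to 0.04.

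Ribosomal protein genes and oxidative phosphorylation genes, whose transcripts are short, showed the same order of litters. Of 81 cytosolic ribosomal protein genes (median transcript length 1106 bases), 75 were above 0 and the median was 0.12. By litter it was 0.50, −0.14 and 0.04, and without litter 1 it turned to −0.04. No ribosomal protein gene had an unadjusted p under 0.05. Of 79 nuclear genes for subunits of oxidative phosphorylation (median 1046 bases), 73 were above 0 with a median of 0.12, 5 were higher at an unadjusted p under 0.05 (against 2.13% of all genes) and 27 were higher in all 3 litters (against 12.2% of all genes). Ndufb2, a complex I subunit, stood at 42.5, 54.2 and 55.7 CPM in scramble-shRNA and 60.0, 59.2 and 64.2 CPM in Rock1/2-shRNA (0.27 ± 0.10), and its groups did not overlap. Ndufs4 (0.32 ± 0.12), Ndufa7 (0.25 ± 0.11) and the ATP synthase subunit Atp5me (0.30 ± 0.13) overlapped. Of the 79 genes, 7 were higher without overlap, against 2.61% of all genes. By litter the median of this list was 0.42, −0.05 and 0.06, and without litter 1 it was 0.01. Scramble-shRNA of litter 1 had the lowest summed level of both lists. For ribosomal protein genes it was 103264 CPM there and 130051 to 153128 CPM in the other 5 libraries, and for oxidative phosphorylation genes 10711 CPM there and 12445 to 13332 CPM in the others.

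Endothelial genes lay higher with Rock1/2-shRNA among the negative cells and lower among the positive cells. All 22 of the list were tested and 21 were above 0, with a median of 0.18, and by litter it was 0.14, 0.14 and 0.17. Higher in all 3 litters were 11 of the 22, against 12.2% of all genes, and 3 had an unadjusted p under 0.05 on the higher side, against 2.13% of all genes. Sox17, a transcription factor of arterial endothelium, stood at 3.57, 4.77 and 5.40 CPM in scramble-shRNA and 4.87, 6.68 and 8.55 CPM in Rock1/2-shRNA (log2 fold change 0.53 ± 0.19). Eng, a TGF-beta co-receptor, stood at 12.6, 13.7 and 19.8 CPM against 13.4, 23.3 and 24.4 CPM (0.41 ± 0.16). Egfl7, a matrix protein secreted by endothelium, stood at 25.3, 29.6 and 47.9 CPM against 30.3, 37.9 and 60.1 CPM (0.33 ± 0.13). In each of the 3 the libraries of litter 1 were lowest in their group and the groups overlapped. The negative cells of Mylk-shRNA, compared with the same scramble-shRNA libraries, also lay above them in each litter, with Sox17 at 5.65, 5.56 and 9.29 CPM, Eng at 16.6, 16.3 and 27.2 CPM and Egfl7 at 36.9, 39.8 and 69.3 CPM. A difference of Rock1/2-shRNA cannot here be told apart from one of the shared scramble-shRNA libraries. Gja4, a gap junction protein of arteries, followed at 0.41 ± 0.20. The summed level of the list was 525 to 649 CPM in scramble-shRNA and 575 to 769 CPM in Rock1/2-shRNA. Over all alternatives, with any 1 library or litter left out, the median lay between 0.11 and 0.23.

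In positive cells of the same cultures 3 of the 22 endothelial genes were above 0 and the median was −0.25. The difference between the fractions' effects was above 0 for 20 of 22, with a median of 0.49, and 7 had an unadjusted p under 0.05, against 2.64% of all genes. For Sox17 it was 1.08 on the log2 scale, for Eng 0.58 and for Egfl7 0.53. None of the adjusted p values of this test fell under 0.05 (0 of 16544, 0%). Whether endothelial cells were sorted into the fractions in different proportions in the 2 conditions was not tested.

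Red cell genes behaved alike with larger steps and larger spread. Of 20 erythroid genes 11 were tested, 10 of these were above 0 and the median was 0.81. The low-count filter ran over all 18 libraries, so members scarce in negative cells of scramble-shRNA could pass it through other groups, those of Rock1/2-shRNA included. The count above 0 is therefore a description. With only the compared groups 10 were tested, 9 were above 0 and the median was 0.747. Hbb-bs and Hbb-bt encode adult beta globins. Hbb-bs stood at 20.6, 39 and 40.5 CPM in scramble-shRNA and 39.9, 115 and 71.0 CPM in Rock1/2-shRNA (1.15 ± 0.47, unadjusted p = 0.0341). Hbb-bt stood at 7.92, 16.3 and 12.7 CPM against 19.9, 54.1 and 26.5 CPM (1.39 ± 0.55), and its groups did not overlap. These standard errors draw on the spread over all 18 libraries. With only the compared groups they were 0.134 for Hbb-bs and 0.143 for Hbb-bt. Rock1/2-shRNA of litter 2 was the highest library for both. Ahsp, the chaperone of alpha globin, was scarce, at 0.18, 0.49 and 0.26 CPM against 0.61, 1.61 and 1.71 CPM (1.76 ± 0.63). The list's median was 0.02 without Rock1/2-shRNA of litter 2, and by litter it was 0.38, 1.4 and 0.31.

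The positive cells held more globin, and there Rock1/2-shRNA lay on the lower side. Hbb-bs was there at 133, 140 and 329 CPM in scramble-shRNA and 34.4, 100 and 186 CPM in Rock1/2-shRNA, lower in each litter. Of the 11 genes 1 was above 0 in the positive fraction, with a median of −0.98, and the difference between the fractions' effects was above 0 in 11 of 11, with a median of 1.86. The embryonic globin Hbb-y, named after its values were seen, stood at 4.95, 4.77 and 8.74 CPM in negative cells of scramble-shRNA and at 559, 111 and 1231 CPM in their positive cells. Its log2 fold change in negative cells was 0.41 ± 1.16 and turned to −1.08 without Rock1/2-shRNA of litter 2. The alpha globin Hba-a1 was at 24.9, 38.6 and 45.9 CPM against 34.9, 105 and 55.8 CPM in negative cells (0.86 ± 0.62). In the negative fraction the list's summed level was 101 to 166 CPM in scramble-shRNA and 147 to 390 CPM in Rock1/2-shRNA, with Gata1 at or below 0.29 CPM in each of the 6 libraries.

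**Figure D4:**
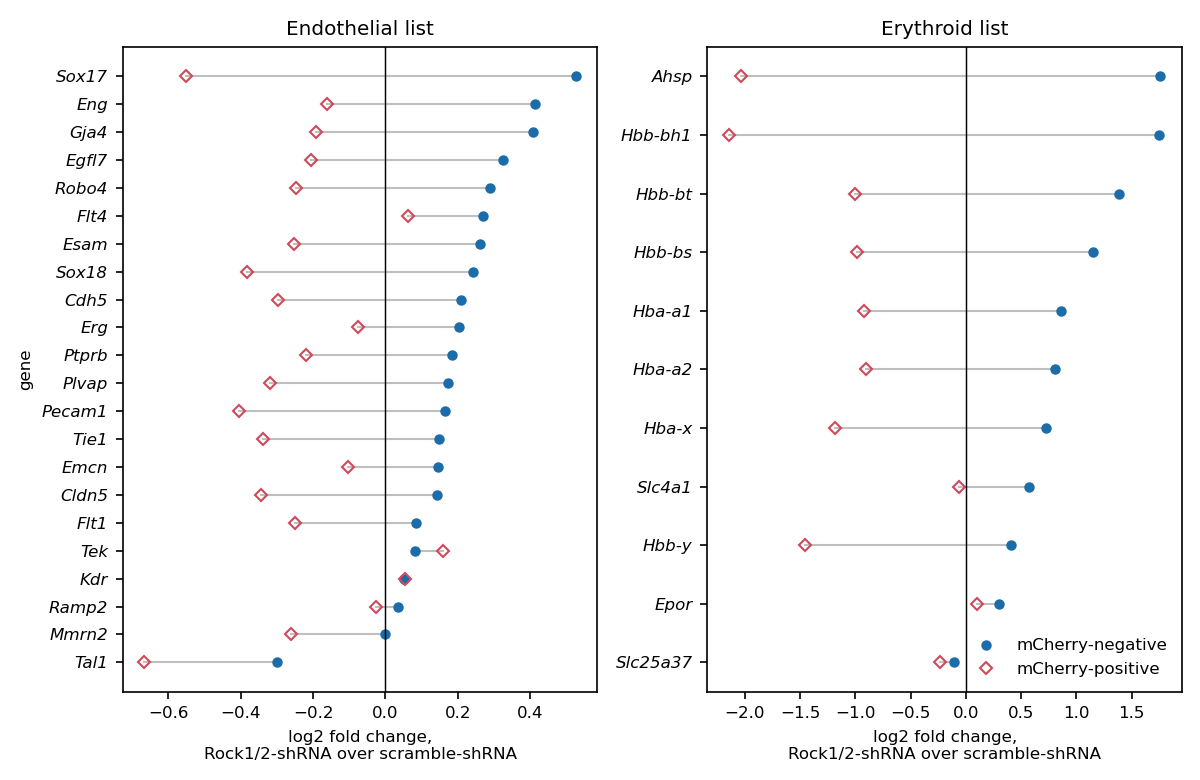
Log2 fold change of Rock1/2-shRNA over scramble-shRNA (horizontal axes) for each tested gene (rows) of the endothelial list and the erythroid list, in mCherry-negative cells (filled) and mCherry-positive cells (open), 3 libraries a group. Filled points lie right of 0 for 21 of 22 endothelial genes and 10 of 11 erythroid genes, and most open points lie left of 0.

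Macrophage genes were at low levels in the negative cells. Of 22 leukocyte genes 20 were tested, 15 were above 0 and the median was 0.30, which turned to −0.01 without Rock1/2-shRNA of litter 1. The low-count filter ran over all 18 libraries, so members scarce in negative cells could be tested through the positive fraction. With only the compared groups 13 were tested, 10 were above 0 and the median was 0.345. C1qc and C1qb, chains of the complement component C1q, lay at 0.18, 0.66 and 0.77 CPM and at 0.09, 0.16 and 0.77 CPM in scramble-shRNA, and at 1.31, 1.04 and 1.14 CPM and 0.87, 0.69 and 0.57 CPM in Rock1/2-shRNA. Their log2 fold changes were 1.29 ± 0.44 and 1.66 ± 0.60. In positive cells C1qc stood at 54.5 to 95.4 CPM. Fcer1g, the gamma chain of Fc receptors, was at 0.52 ± 0.28. The summed level of the list in negative cells was 25.2 to 33.8 CPM in scramble-shRNA and 28.0 to 41.1 CPM in Rock1/2-shRNA, with overlapping ranges.

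Genes on the pathway that the shRNAs address showed no common direction. Of 26 tested ROCK substrates and regulators of myosin light chain, 13 were above 0 and the median was 0.00. Ppp1r14a was the only member higher at an unadjusted p under 0.05, and Ssh1, a phosphatase that activates cofilin, the only one lower. The shares of all genes tested were 2.13% higher and 1.76% lower, so lists of this size hold few such genes in any case. Ssh1 stood at 60.3, 53 and 39.1 CPM in scramble-shRNA and 43.3, 42.9 and 38.6 CPM in Rock1/2-shRNA (−0.30 ± 0.10), with the difference almost nil in litter 3. Cfl2, a cofilin, was steady within groups and did not overlap, at 109, 109 and 107 CPM against 119, 116 and 116 CPM, but the step was small (0.11 ± 0.08). Such a lack of overlap on the higher side was a feature of 2.61% of all genes. Among partners of ROCK, the GTPase Rhoc stood at 108, 111 and 107 CPM against 117, 119 and 127 CPM (0.16 ± 0.08) and the RhoA exchange factor Arhgef2 at 148, 121 and 117 CPM against 111, 121 and 114 CPM (−0.17 ± 0.09). Nonmuscle myosin and actin genes had 5 of 19 above 0 and a median of −0.02. Targets of MRTF and SRF, transcription factors that read the actin monomer pool, had 12 of 20 above 0 and a median of 0.03. Targets of YAP and TAZ, which read cell spreading and tension, had 6 of 14 above 0 and a median of −0.06. In these 3 lists no gene had an unadjusted p under 0.05, and the medians changed sign between litters.

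The lists of the nephron lineage held few genes with an unadjusted p under 0.05. Of 17 tested nephron progenitor genes 3 were above 0 and the median was −0.09, with 4 lower in all 3 litters against 9.66% of all genes. Without litter 2 the median was −0.03. Spock2, a matrix proteoglycan, stood at 165, 151 and 125 CPM against 137, 139 and 115 CPM (−0.18 ± 0.10). Eya1, a partner of Six2, stood at 116, 128 and 87.1 CPM against 109, 104 and 79.4 CPM (−0.18 ± 0.13), and Dpf3, a chromatin reader, lay at −0.23 ± 0.14. None had an unadjusted p under 0.05, and Six2 itself was at −0.09 ± 0.15. All 15 tested proximal tubule genes were above 0 with a median of 0.31, but by litter it was −0.08, 0.88 and −0.02. Without litter 2 it was −0.07. Lrp2 (megalin, the endocytic receptor) stood at 10.8, 9.04 and 9.77 CPM against 11.5, 13.7 and 12.7 CPM (0.31 ± 0.19), without overlap. Fxyd2, a sodium pump subunit, was at 0.40 ± 0.25, and Pdzk1, an apical scaffold, at 0.86 ± 0.44. In the ureteric trunk and collecting duct list 10 of 11 were above 0, against 52.2% of all genes tested. At an unadjusted p under 0.05, 2 were higher, against 2.13% of all genes. These were Scnn1b, an epithelial sodium channel subunit (0.56 ± 0.24), and the keratin Krt8 (0.57 ± 0.25), which stood at 15.7, 11.2 and 4.67 CPM against 13.7, 22.4 and 13.2 CPM. The list's median was 0.14, and −0.01 without Rock1/2-shRNA of litter 2. Of 22 stromal genes 9 were above 0 with a median of −0.07, which turned to 0.012 without scramble-shRNA of litter 3 and to 0.001 without litter 3. The guidance cue Ntn1 was its only member with an unadjusted p under 0.05, at 51.1, 30.3 and 25.4 CPM against 31.5, 27.4 and 20.4 CPM (−0.40 ± 0.15). Of all genes tested, 1.76% were lower at that threshold.

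**Figure D5:**
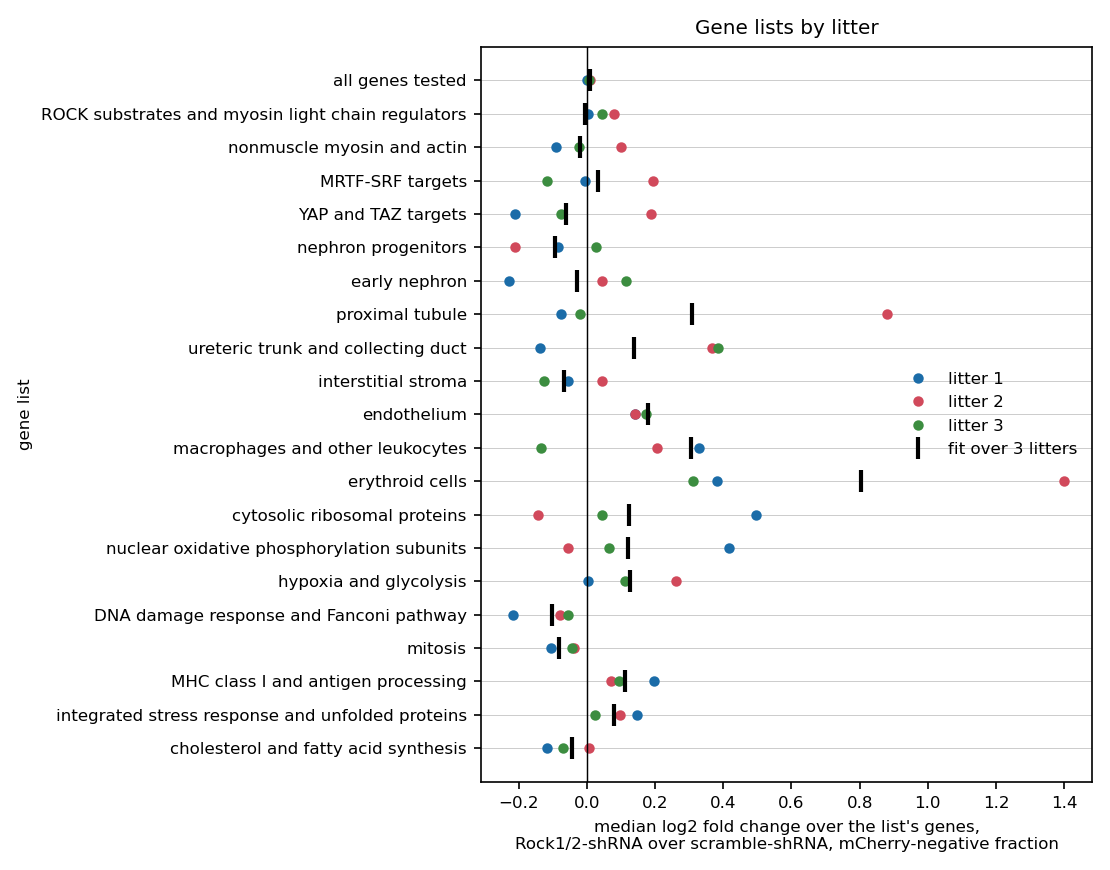
Median log2 fold change of Rock1/2-shRNA over scramble-shRNA in mCherry-negative cells (horizontal axis) over the tested genes of 20 lists and over all genes (rows), with 1 coloured point for each litter and a black bar for the fit over 3 litters. The litters of the endothelial list lie together between 0.14 and 0.17, while litter 2 stands apart for proximal tubule (0.88) and erythroid genes (1.4) and litter 1 for ribosomal proteins (0.50).

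Genes of mitosis and of DNA repair lay on the lower side. Of 26 mitosis genes 6 were above 0, the median was −0.08 and by litter −0.11, −0.04 and −0.04, with −0.05 without scramble-shRNA of litter 1. Cenpe, a kinetochore motor, stood at 92.9, 54.2 and 35.2 CPM in scramble-shRNA and 50.5, 54.1 and 29.5 CPM in Rock1/2-shRNA (−0.43 ± 0.17). Cenpf, a further kinetochore protein, stood at 100, 59.4 and 51.7 CPM against 53.3, 65.5 and 38.9 CPM (−0.41 ± 0.17). For both, litter 1 of scramble-shRNA was above all other libraries, and litter 2 showed almost no step for Cenpe and a step upward for Cenpf. The proliferation marker Mki67 was at −0.32 ± 0.19. Of 24 genes of the DNA damage response and the Fanconi pathway (median length 4962 bases, against 3128 for all genes), 5 were above 0 and the median was −0.10. By litter it was −0.22, −0.08 and −0.06. Brip1, a helicase that partners BRCA1, stood at 14.1, 10.4 and 9.77 CPM against 8.61, 10.2 and 6.98 CPM (−0.41 ± 0.15). Blm, the helicase lost in Bloom syndrome, stood at 52.2, 42.9 and 30.6 CPM against 39.3, 37.5 and 29.4 CPM (−0.25 ± 0.09). Topbp1, which activates the checkpoint kinase ATR, stood at 74.4, 72.1 and 76.6 CPM against 61.5, 67.4 and 70.1 CPM (−0.17 ± 0.08) and was the member without overlap. The adaptor Mdc1 was at −0.25 ± 0.12. Of 40 replication genes 13 were above 0, and Atad5 alone had an unadjusted p under 0.05. Of all genes tested, 52.2% were above 0, 1.76% were lower at that threshold and 1.83% were lower without overlap.

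Antigen presentation, protein-folding stress and lipid synthesis also held members with an unadjusted p under 0.05. Among all genes tested, 2.13% were higher and 1.76% lower at that threshold. Of 18 tested MHC class I and antigen processing genes 14 were above 0, with a median of 0.11, by litter 0.20, 0.07 and 0.10, and 0.02 without litter 1. Beside H2-D1, the peptide-trimming enzyme Erap1 had an unadjusted p under 0.05, at 5.31, 7.31 and 4.63 CPM against 8.79, 7.84 and 6.55 CPM (0.41 ± 0.19). The light chain B2m was at 0.16 ± 0.11 and the immunoproteasome subunit Psmb9 at 0.90 ± 0.55. Of 20 genes of the integrated stress response and unfolded protein response 15 were above 0, with a median of 0.08, which was 0.03 without litter 1 and 0.03 without Rock1/2-shRNA of litter 1. Ddit3 (CHOP, a stress-induced transcription factor) stood at 27.7, 23.8 and 28.3 CPM against 37.4, 32.2 and 28.6 CPM (0.32 ± 0.12), and Dnajb9, a chaperone of the endoplasmic reticulum, at 53.5, 43.0 and 34.3 CPM against 63.0, 47.3 and 44.7 CPM (0.24 ± 0.11). Trib3, a pseudokinase downstream of CHOP, was at 0.36 ± 0.17. Of 26 genes of cholesterol and fatty acid synthesis 10 were above 0. Scd1, the stearoyl-CoA desaturase, stood at 78.0, 69.8 and 45.1 CPM against 62.6, 55.6 and 35.3 CPM (−0.34 ± 0.11) and was lower in each litter. Acaca, which commits acetyl-CoA to fatty acids, was at −0.24 ± 0.11 and Sc5d, a sterol desaturase, at −0.21 ± 0.09. Genes that process miRNAs and shRNAs had 3 of 14 above 0 and a median of −0.07. By litter it was −0.22, 0.02 and 0.02, and without litter 1 it was 0.001 with 7 of 14 above 0. Dicer1, which cuts their precursors, stood at 46.2, 41.6 and 46.3 CPM against 34.7, 39.8 and 42.5 CPM (−0.21 ± 0.12).

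The interferon, immediate early, Notch and neuronal lists held 5 further genes with an unadjusted p under 0.05. Over all genes tested the shares at that threshold were 2.13% higher and 1.76% lower. Of 25 tested interferon response and nucleic acid sensing genes 17 were above 0 with a median of 0.07, by litter 0.02, 0.23 and −0.004. Bst2 (tetherin, which holds budding virus at the cell surface) stood at 29.9, 31.3 and 36.6 CPM in scramble-shRNA and 38.8, 34.4 and 45.0 CPM in Rock1/2-shRNA (0.27 ± 0.12). The transcription factor Irf1 stood at 10.7, 10.5 and 15.7 CPM against 12.6, 13.4 and 18.7 CPM (0.30 ± 0.14). Both were higher in each litter, and the groups overlapped for both. Of 24 immediate early and dissociation stress genes 16 were above 0 with a median of 0.07, which was 0.004 without scramble-shRNA of litter 1. Klf2, a transcription factor induced by fluid shear, was at 0.26 ± 0.11. Of 16 Notch pathway genes 8 were above 0, and Nrarp, a Notch target that limits the pathway, was at 0.34 ± 0.16. Of 6 tested genes of neurons and Schwann cells 3 were above 0. Elavl4, a neuronal RNA-binding protein, stood at 26.7, 29.8 and 18 CPM against 23.1, 19.8 and 15.2 CPM (−0.37 ± 0.14).

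The effect of Rock1/2-shRNA was then compared between negative and positive cells by the interaction of the same fit. That fit has no term for the culture that both fractions of a condition and litter share. No gene passed (0 of 16544, 0%, edgeR quasi-likelihood test with Benjamini-Hochberg adjustment), DESeq2 called 0, and 437 (2.64%) had an unadjusted p under 0.05 by edgeR and 257 by DESeq2. In positive cells themselves Rock1/2-shRNA also gave 0 calls, with 352 genes at an unadjusted p under 0.05. The leading genes on the side where the negative effect was the higher one included Nudt14, Ccl11, Kcne3, Rbp4 and Ctla2a. Ctla2a, a cysteine protease inhibitor, stood at 6.64, 11.5 and 24.0 CPM in negative cells of scramble-shRNA and 10.2, 17.7 and 32.4 CPM in those of Rock1/2-shRNA. In positive cells it stood at 9.87, 9.84 and 9.04 CPM against 3.74, 7.10 and 6.73 CPM, so that Rock1/2-shRNA was the higher in each litter of the negative cells and the lower in each litter of the positive cells. The difference of the effects was 1.30 ± 0.38 on the log2 scale. Ccl11 (eotaxin, a chemokine) was at 1.28, 1.56 and 1.28 CPM against 3.22, 2.42 and 2.56 CPM in negative cells and at 18.5, 18.7 and 10.8 CPM against 19.2, 17.2 and 9.30 CPM in positive cells (difference 1.13 ± 0.31). Nudt14, a nucleotide sugar hydrolase, differed by 1.00 ± 0.26 and Rbp4, the retinol carrier, by 1.04 ± 0.30. In negative cells of Mylk-shRNA, Ctla2a (13, 14.7 and 27.4 CPM), Ccl11 (2.83, 1.82 and 1.55 CPM) and Kcne3 also lay above scramble-shRNA in each litter. Nudt14 lay below it in litter 3 and Rbp4 in litter 2. For Ctla2a, Ccl11 and Kcne3 a difference of Rock1/2-shRNA cannot be told apart from one of the shared scramble-shRNA libraries.

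On the opposite side the 6 leading genes were Fancd2, Rnf168, Znrf3, Thsd4, Kif15 and Arv1. Fancd2, the central protein of the Fanconi pathway, stood at 14.6, 9.70 and 6.43 CPM against 11.6, 8.18 and 6.98 CPM in negative cells and at 10.7, 7.98 and 6.34 CPM against 13.5, 14 and 7.96 CPM in positive cells. It was higher with Rock1/2-shRNA in each litter of the positive cells, and the difference of the effects was −0.75 ± 0.22. Rnf168, a ubiquitin ligase recruited to DNA breaks, differed by −0.56 ± 0.16, and Znrf3, which removes Wnt receptors from the cell surface, by −0.63 ± 0.19. Thsd4 (−0.48 ± 0.15), the mitotic kinesin Kif15 (−0.37 ± 0.12) and Arv1 (−0.76 ± 0.25) followed. The leading genes of both sides were picked by this same test, and each adjusted p was 1.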

How the data were processed

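RNA of sorted cells from embryonic mouse kidney cultures was sequenced in 18 libraries (6 groups of 3 litters). The authors deposited 1 table that gives, for each gene in each library, an estimated count and the CPM made from it. The counts are not all whole, with 22.1 to 27.4% of nonzero values fractional, and the deposited CPM are these counts per 1e6 counts of a library. The submitters' processing notes name fastp 0.24.0, FastQC 0.12.1, STAR 2.7.11, SAMtools 1.22.1, Subread 2.1.1 with featureCounts, MultiQC 1.32 and build GRCm39. How multimapping reads were shared is not given in the sources used here, so globin and MHC genes with close copies, such as Hbb-bs, Hbb-bt and H2-D1, are uncertain, and so are overlapping genes.

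Of 78409 rows, 92 spike-in rows were left out. Estimated counts were rounded and genes with low counts removed by filterByExpr (minimum count 10, minimum total 15), which left 16544. The main test was edgeR 4.0.16 (R 4.3.3, limma 3.58.1), the quasi-likelihood test with TMM scaling, 6 group means and litter as a block over all 18 libraries (10 residual degrees of freedom), with Benjamini-Hochberg adjustment over all genes tested and a threshold of 0.05. The interaction subtracted the effect in positive cells from that in negative cells. Both fractions of a condition and litter came from 1 pooled culture. The fit had no term for culture and treated these libraries as independent within a litter, also in the standard errors and p-values of the interaction. DESeq2 1.42.0 was an alternative, beside other scaling, no filter, no block, fewer groups and left-out libraries or litters. The series' description gives the pairing by litter. Deviations from group means correlated at 0.237 to 0.639 between libraries of 1 litter (45 pairs) and at −0.544 to 0.31 between litters (90 pairs). None of the 6 pairs of libraries within the compared groups agreed within sampling noise.

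The 40 gene lists and the comparison were chosen with earlier results of these data known, so no list is independent support. Named genes were Rock1, Rock2 and Mylk, 12 genes a direction, 6 a direction for the interaction, and up to 4 members a list by unadjusted p. The 12 and 6 needed a mean of at least 5 CPM over the libraries compared (for the interaction, 12) and 1 sign in all 3 litters, and left out predicted genes and pseudogenes. The values of 2 genes that met this rule are not reported here. Per-litter differences used CPM with a prior count of 2. Transcript lengths are the longest annotated transcript of GENCODE vM21, matched by gene ID, and promoters are RefSeq windows of GRCm38.p6.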

Additional observations from a re-analysis of the deposited data

How the results depend on the processing

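The count of 0 genes called stayed 0 with other scaling, with DESeq2, with only the 9 negative libraries and with no replicate block (0 genes called in the comparison and 0 in the interaction; 200 and 145 genes at an unadjusted p under 0.05, against 644 and 437 with it). It also stayed 0 when any 1 library was left out (range 0 to 0) and without litter 1 or litter 3. With no filter on low counts 4 genes were called (Srgn, H2ac8, Prrc2c and Gm5898), and 2 in the interaction (Ctla2a and Fabp4). With only the compared groups, which leave few degrees of freedom, 2 were called (Hbb-bs and Hbb-bt). Their log2 fold changes were 1.133 ± 0.134 and 1.425 ± 0.143 there, against 1.15 ± 0.47 and 1.39 ± 0.55 in the main fit. The main fit estimates the spread of a gene over all 18 libraries. Without litter 2, an alternative added after the data were seen, 3 were called (Srgn, Gm9104 and Rpl21-ps8). Srgn, Prrc2c, Fabp4 and the 3 predicted genes or pseudogenes were named after their values were seen, and the cause of these calls was not tested. At an unadjusted p the count lay between 509 and 916 over the left-out libraries, and was 392 with DESeq2, 1238 with no filter, 428 without litter 1 and 1248 without litter 2.

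The sign of the log2 fold change turned for 3 of the named genes. Rock2 was at 0.021 without litter 1, and over the left-out libraries it ran from −0.18 to 0.067, the latter without scramble-shRNA of litter 1. Hbb-y was at −0.736 without litter 2 and ran from −1.08, without Rock1/2-shRNA of litter 2, to 1.13. Xist was at 0.821 without litter 3 and ran from −1.298 to 0.345, with 0.274 without scramble-shRNA and 0.345 without Rock1/2-shRNA of litter 3. Of 640 list medians under the alternatives, 79 changed sign, among them those named beside the lists. Between 3889467 and 12170313 counts a library, genes below about 1 CPM, such as Ahsp and C1qb, rest on few counts.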
